A study of Drosophila melanogaster with 8 samples.

Results

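WT wing peaks that share no base with any WT leg peak or any WT salivary gland peak, called wing-only peaks here, numbered 6978 of the 29283 peaks in the WT wing list (23.8%). They were chosen from the authors' merged peak lists, which hold 26754 peaks for leg and 16840 for gland, and were split by whether a peak of the EcR-RNAi wing list (18464 peaks) overlapped them. An EcR-RNAi wing peak overlapped 1535 of them and none overlapped the other 5443. All 4 lists come from FAIRE-seq, an assay of open chromatin: crosslinked DNA is extracted with phenol, and the fraction not held by nucleosomes is recovered and sequenced.

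The series holds 8 libraries from female Drosophila melanogaster, 2 in each of 4 groups, each made from at least 40 dissected tissues of wandering larvae of the third instar (-6 h relative to puparium formation, raised at 25 °C). WT wing, WT leg and WT salivary gland carry the genotype +/+; +/+; +/+. The EcR-RNAi wing is yw/yw and carries the driver Vg-GAL4, the recombinase transgene UAS-Flp, the flip-out cassette Tub>>CD2>>GAL4, and both UAS-EcR-RNAi[104], a hairpin against the ecdysone receptor gene EcR, and the reporter UAS-GFP. In this system GAL4 from the vg driver turns on the recombinase, which opens the cassette so that GAL4 stays on in those cells and their descendants. WT and EcR-RNAi wing therefore also differ in the yw background, the driver and the reporter, and cells that never expressed the driver would keep EcR. The peak names of the gland list begin with EcRmimic, where those of WT wing and leg begin with OR, although the labels give the gland as wild type. That list alone also has a size tag, so stock and processing may differ along with tissue. Peaks were called on merged libraries, so no value of a peak has a replicate, no value per library is given, and library depths are unknown.

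Imaginal discs are the larval epithelia that form the adult appendages. Wing and leg discs are serially related, share most of their signalling genes and are told apart by selector genes such as vg in the wing. Enhancers of such genes often lie in introns or between genes, and open chromatin marks many of them without showing that they are active. The salivary gland is a polytene secretory tissue of another origin. Ecdysone, the moulting hormone, acts through EcR and its partner Usp, and its rise in late larvae starts the change of the discs into adult structures.

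Most wing-only peaks were weak peaks. Their fold enrichment, the authors' ratio of signal to local background at the peak, ran from 1.62 to 8.14 with a median of 2.41, against a median of 3.10 for the other 22305 WT wing peaks. Of the wing-only peaks, 83.6% lay below the median of the whole wing list (2.82), and 145 (2.08%) reached its upper quartile (4.03), as 32.2% of the other wing peaks did. A fold enrichment of at least 5 was found at 33 wing-only peaks, and all of these 33 also had an EcR-RNAi wing peak. Their median width was 166 bp (quartiles 140 and 219 bp), against 271 bp for the other wing peaks. A narrow peak has less chance to overlap another, and its part in the choice of the members was not tested.

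**Figure D1:**
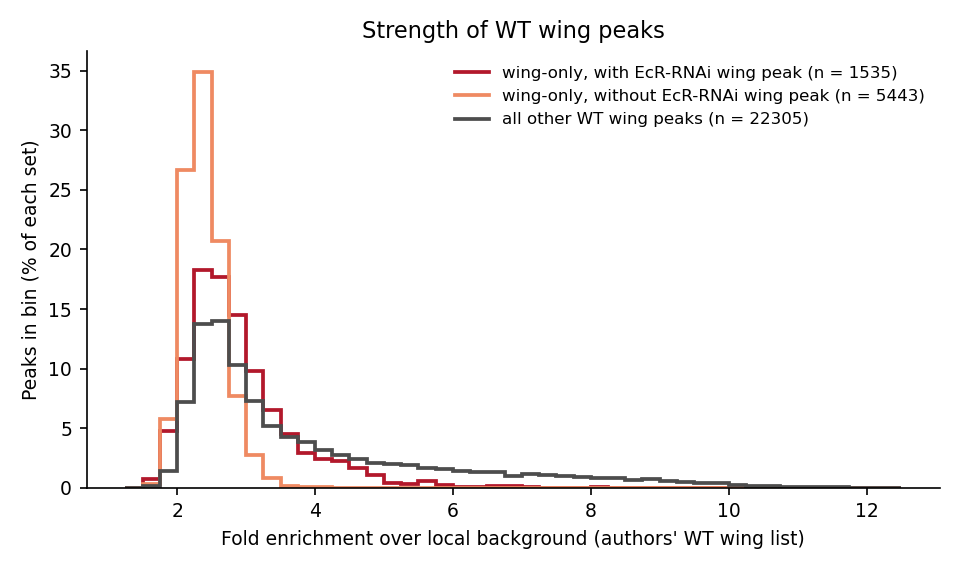
Distribution of the authors' fold enrichment (x axis, ratio to local background, bins of equal width) as a percentage of each set (y axis) for wing-only peaks with an EcR-RNAi wing peak (n = 1535), wing-only peaks without one (n = 5443) and all other WT wing peaks (n = 22305). The set without an EcR-RNAi peak is concentrated near its median of 2.36, the set with one has a median of 2.73, and the other wing peaks extend to 12.1.

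The choice of members turned on single bases at its edge. Of the wing-only peaks, 7 touched a leg or gland peak without sharing a base, and 95 lay less than 25 bp from one. On the other side, 4 wing peaks were left out for an overlap of 1 bp, and 115 for an overlap of less than 25 bp. Just inside lay the peak at sfl (3L 6495587 to 6495714, fold enrichment 3.34, with an EcR-RNAi wing peak), at l(2)dtl (2R 23703588 to 23703714, fold enrichment 2.28) and at Syx8 (3L 16586531 to 16586768, fold enrichment 2.46). Just outside lay those at Ctns (3R 23058879 to 23059141, fold enrichment 2.25), Zwilch (3R 31213039 to 31213209, fold enrichment 2.04) and mamo (X 13883814 to 13884020, fold enrichment 2.61). Such edge peaks are few: the median gap from a wing-only peak to the nearest leg or gland peak was 743.5 bp, and 21.7% had one within 250 bp while 8.89% had none within 5000 bp.

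The EcR-RNAi wing list comes from wing discs whose libraries were not used to choose the members, so it shows which wing-only peaks were called again in the same tissue. It held 22% of them (95% Wilson interval 21.04% to 22.98%, which covers counting only), against 50.6% of all WT wing peaks and 59.6% of the other wing peaks. From a fold enrichment of 2 upwards the share rose with the strength of the wing peak, and below 2 it was 20.1% (84 of 418). Of wing-only peaks with a fold enrichment between 2 and 2.5 the EcR-RNAi list held 11.7% (446 of 3797), between 3 and 3.5 it held 56.3% (251 of 446), between 4 and 5 it held 96.6% (113 of 117), and from 5 upwards all 33.

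Set beside other wing peaks of like strength, wing-only peaks had the lower share in each band under 3.5 and not above it. Between 2.5 and 3, 24.2% of wing-only and 32.6% of other wing peaks had an EcR-RNAi wing peak. Between 3.5 and 4 the shares were 91.2% (95% interval 84.9% to 95.02%) and 85.9% (84.3% to 87.5%), and between 4 and 5 they were 96.6% and 95.7%, with overlapping intervals. Peak width, which was smaller for wing-only peaks, was not matched within the bands, and its part was not tested. The EcR-RNAi list is shorter than the WT wing list, so a missing peak there is not a measured loss. Values for both wing groups come from the comparison tables. The EcR-RNAi peaks that overlapped wing-only peaks numbered 1518 and had a median fold enrichment of 2.82 in their own list, against 3.39 for that whole list.

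**Figure D2:**
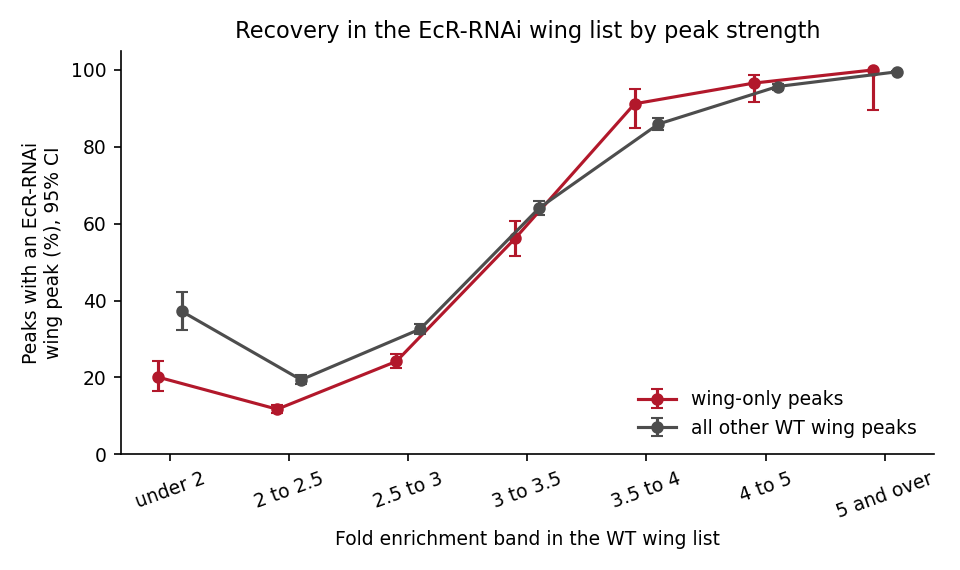
Percentage of WT wing peaks overlapped by an EcR-RNAi wing peak (y axis; bars are 95% Wilson intervals, which cover counting only) in bands of the authors' fold enrichment (x axis), for wing-only peaks and all other WT wing peaks. Both series climb from under 40% in the weakest bands to 100% and 99.5% at 5 and over, and wing-only peaks lie lower in the 4 bands under a fold enrichment of 3.5.

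Wing-only peaks lay mainly inside genes and away from gene ends. The summit was within 500 bp of an end of a protein-coding gene at 17.8% of them (1239), farther inside a gene at 64.2% (4480), and between genes at 18.0% (1259). For all WT wing peaks these shares were 27.1%, 56.4% and 16.5%. Wing peaks shared with leg but not gland had nearly the same shares as wing-only peaks (17.7% near gene ends, 62.2% inside genes and 20.2% between genes), whereas 58.4% of those shared with both leg and gland lay near a gene end. Exons, introns and transcription starts were not assigned, because the gene table used gives no strand and no exons.

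Position differed with the split by EcR-RNAi peak. Of wing-only peaks with an EcR-RNAi wing peak 36.7% lay between genes and 11.5% near a gene end, with a median distance of 4702 bp to the nearest gene end. Of those without one 12.8% lay between genes and 19.5% near a gene end, at a median of 1628 bp. Peaks with an EcR-RNAi peak were also stronger, but the difference was present within bands of like strength: between 2 and 2.5, 32.1% of those with and 9.61% of those without an EcR-RNAi peak lay between genes, and between 2.5 and 3 these were 34.4% and 17.6%. Between 3 and 3.5 they were closer (36.3% and 30.8%), and between 3.5 and 4 only 11 peaks had no EcR-RNAi peak. Of the 33 with a fold enrichment of at least 5, 25 lay between genes, 8 inside genes and 0 near a gene end.

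**Figure D3:**
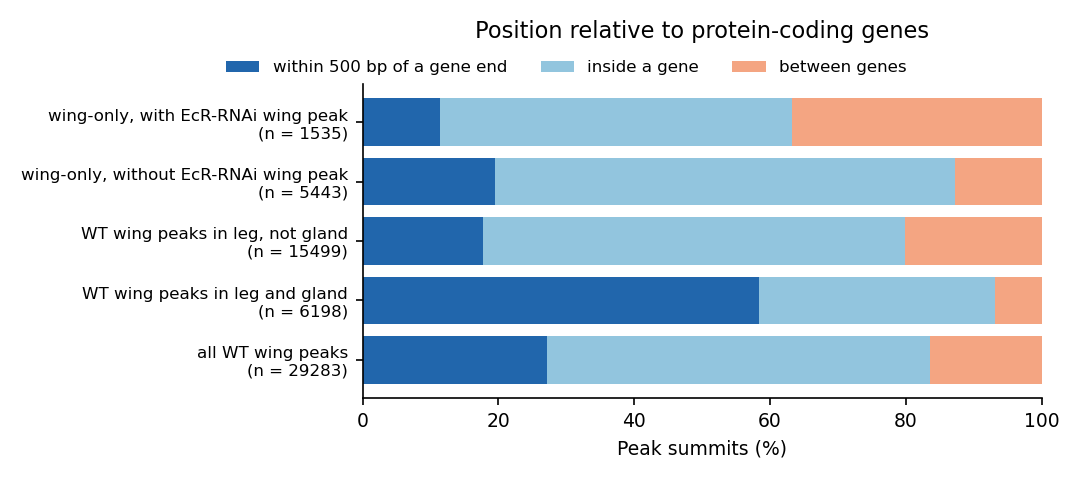
Percentage of peak summits (x axis) within 500 bp of a protein-coding gene end, farther inside a gene, or between genes, for sets of WT wing peaks (rows, with n). Wing-only peaks with an EcR-RNAi wing peak have the widest segment between genes (36.7%), and peaks shared with leg and gland the widest near gene ends (58.4%).

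The chromosome arms 2L, 2R, 3L, 3R and X held similar shares of wing-only peaks, from 22.6% of wing peaks on X to 25.0% on 2L. On chromosome 4 they made up 10 of 77 wing peaks and on Y 6 of 34, although all libraries are labelled female. No Y peak among them had an EcR-RNAi wing peak. Another WT wing peak lay within 500 bp of 40.3% of wing-only peaks, a smaller share than the 53.1% of the other wing peaks.

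The nearest protein-coding gene was one of 4235, and 2808 of these were nearest to only 1 wing-only peak, while 15 genes had 10 or more. Of those 15, hth, mirr, salr, bs, bi, vg and tsh encode regulators of wing disc pattern. The gene hth, which encodes a homeodomain cofactor that specifies proximal appendage parts such as the wing hinge, was nearest to 31 wing-only peaks of its 72 WT wing peaks (43.1%). Of these 31, 15 had an EcR-RNAi wing peak, and 21 lay inside a gene. Its gene body is long (132 kb), and long genes can collect more peaks, so the share of the gene's own wing peaks is given beside each count.

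The Iroquois gene mirr, a homeodomain regulator of the notum and dorsal wing, had 20 wing-only peaks of 35 (57.1%) and 10 of these had an EcR-RNAi wing peak. At salr, a zinc finger gene that patterns the central wing downstream of Dpp, 15 of 23 wing peaks (65.2%) were wing-only and 10 of these had an EcR-RNAi peak. The intervein gene bs, the fly serum response factor, had 11 of 22, and bi (optomotor-blind), a T-box target of Dpp, 11 of 45. The wing selector vg had 10 of 18 (55.6%), 8 of them with an EcR-RNAi wing peak, and tsh, a zinc finger gene of the proximal disc, 10 of 29 with 1. Leg-only peaks, defined the same way in the leg list (4098 of 26754, no wing or gland peak), numbered 2 at hth, 0 at mirr, 1 at salr, 0 at bs, 3 at bi, 0 at vg and 0 at tsh.

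The other genes with 10 or more were of other kinds. The growth and planar polarity cadherin gene ds had 11 wing-only peaks of 32 wing peaks. The axon guidance gene Sema1a had 10 of 13 and kek1, which encodes an inhibitor of the EGF receptor, had 10 of 26. The apical matrix gene dpy had 10 of 24 by nearest end, none of these 10 with an EcR-RNAi wing peak. HP6, which is nested in dpy by its coordinates, had 11 of 28. All 11 also lay inside dpy, and 3 of them had an EcR-RNAi wing peak. CG42747 had 11 of 32 and CG43658 10 of 42. The 12 wing-only peaks assigned to ATbp, of 108 wing peaks, lay between 151585 and 344748 bp from it on X, so that gene is only the nearest annotated one. None of the 12 had an EcR-RNAi wing peak. Leg-only peaks numbered 9 at ds, 0 at Sema1a, 1 at kek1, 5 at dpy and 3 at HP6. At CG42747 there were 9, at CG43658 6 and at ATbp 21.

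Windows of 100 kb, chosen after the values were seen, placed some of the same loci highest. The median window with any wing-only peak held 5. The highest count was 26, of 64 wing peaks, at 2R 12900001 to 13000000, which holds peaks of vg, and 12 of the 26 had an EcR-RNAi peak. At 2L 11300001 to 11400000 (salr) the window held 21 of 37 and at 3L 12600001 to 12700000 (mirr and caup) 21 of 45, with 13 EcR-RNAi peaks each. The other windows with 21 or more ranged widely in such peaks. At 3R 29500001 to 29600000 (Dr and ND-20L) there were 21 of 49 with 11, at X 6000001 to 6100000 21 of 57 with 8, at X 18600001 to 18700000 22 of 71 with 5, and at 3L 1700001 to 1800000 21 of 61 with 0.

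Gene lists for disc patterning, hormone response and other cell types were read against the share of wing-only peaks in the whole wing list, 23.8%. Above it stood the wing vein and intervein regulators with 35.4% (86 of 243 wing peaks), the notum and proneural genes with 34.1% (56 of 164), and the wing selectors and regulators of pouch and hinge with 31.8% (78 of 245). The first 2 of these lists share mirr, ara and caup, and hth alone supplies 31 of the 78. Also above the share of the whole list were the neural (38.5%, 15 of 39) and haemocyte (35.0%, 7 of 20) lists, over few peaks. The myoblast (25.0%), cuticle (24.4%) and tracheal (24.2%) lists stood close to that share. Below it stood the leg identity genes with 14.5% (41 of 282), the ecdysone response genes with 10.5% (40 of 380) and the housekeeping genes with 2.04% (1 of 49, at RpS3). No test was made of these shares, so none is called particular to its list. Peaks were counted at the gene with the nearest end, so some inside a listed gene are left out of its list. Examples are wing-only peaks inside ush assigned to cbt and inside ab assigned to cmet.

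In the leg list the leg identity genes stood above the share of all peaks, and the wing selector, vein and notum lists below it. Most other lists stood below that share too, so this is not particular to the wing lists. Among them were the ecdysone response (5.63%), Dpp (8.13%), Hedgehog (9.46%), dorsal-ventral and Notch (9.56%) and Wnt (12.6%) lists. Leg-only peaks made up 32.1% (114 of 355) of leg peaks at leg identity genes, 9.89% at vein and intervein genes and 3.41% at wing selector, pouch and hinge genes, against 15.3% of all leg peaks. The Hox gene Ubx alone supplies 31 of the 114. Leg-only shares were also above that of all peaks for the peripodial list (43.4%, 49 of 113, with Ubx and Lim1 in both lists), the haemocyte list (33.3%), the neural list (22.6%) and the cuticle list (20.5%). Lim1, a LIM homeodomain gene of the distal leg, had 15 leg-only and 2 wing-only peaks, and bab2, which patterns the tarsus, had 7 and 1. Not all leg list genes leaned this way: B-H1, a Bar homeodomain gene, had 6 wing-only and 4 leg-only peaks. The gene dysf, which acts in trachea and tarsal joints, had 5 and 0. Dll had 4 and 2, drm 3 and 1, and al and B-H2 3 and 2 each. The gene ap, which is also in the wing selector list, had 5 and 0. The remaining genes of the leg list had more leg-only than wing-only peaks.

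**Figure D4:**
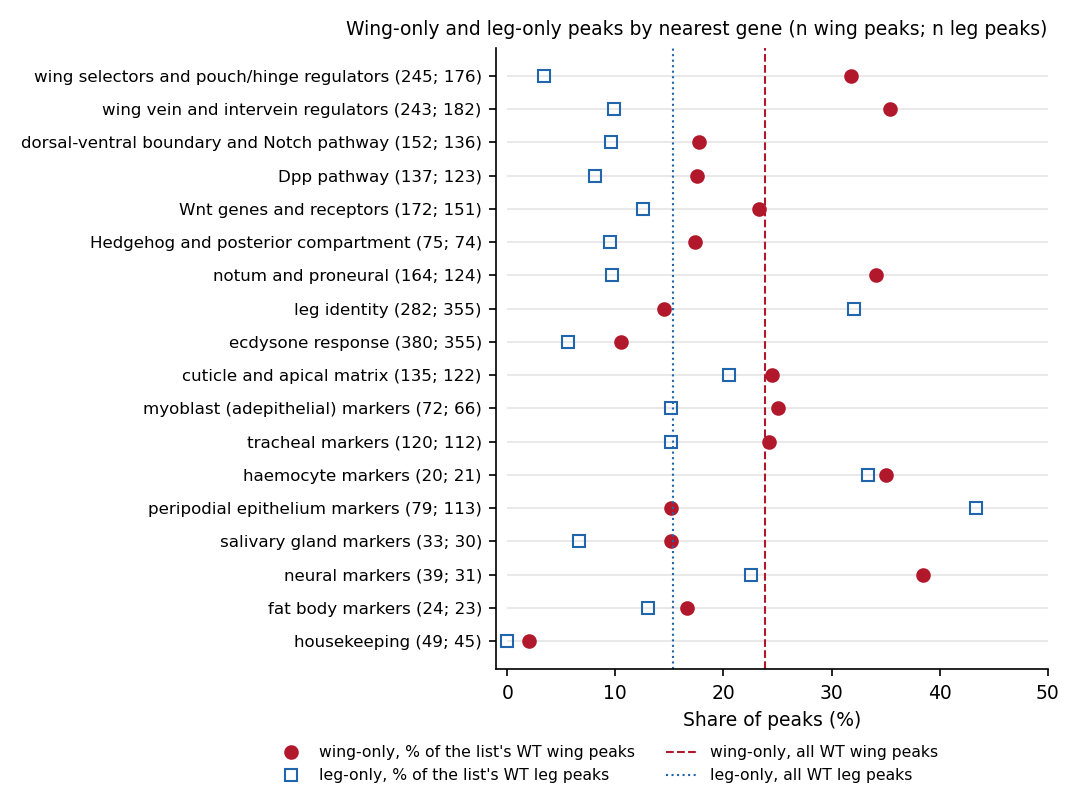
Wing-only peaks as a percentage of the WT wing peaks nearest to the genes of each list (filled circles) and leg-only peaks as a percentage of the WT leg peaks nearest to them (open squares), with the shares over all peaks as vertical lines (23.8% and 15.3%). Numbers beside each list are its wing and leg peaks. The circle of the wing selector list is at 31.8% and its square at 3.41%, and the leg identity list has 14.5% and 32.1%.

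Among wing selectors, pouch and hinge genes, 14 of 16 were nearest to at least 1 wing-only peak. Beside hth, vg and tsh these included ap, the dorsal selector (5 of 13 wing peaks), the POU genes nub (4 of 15) and pdm2 (4 of 7), and sd, which encodes the DNA-binding partner of Vg (2 of 4). The strongest at vg, at 2R 12890151 to 12890366 inside the gene, had a fold enrichment of 4.65. At hth the strongest, at 3R 10578735 to 10579106 inside the gene, had 5.33. All 4 wing-only peaks of nub had an EcR-RNAi wing peak, and neither of the 2 at sd did.

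All 14 vein and intervein genes had at least 1 wing-only peak. The strongest lay at kn, a COE transcription factor of the central wing, with a fold enrichment of 6.96. At salr the strongest reached 5.64 and at caup, another Iroquois gene, 5.61, and caup had 6 of its 7 with an EcR-RNAi wing peak. The vein genes rho, an EGF pathway protease, and vn, an EGF ligand, had 1 and 4. Of the notum genes, tup, a LIM homeodomain gene, had 9 of 18 wing peaks, Dr, a homeobox gene, 6 of 18 and pnr, a GATA factor, 4 of 10.

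Signalling genes of both discs lay near or below the background. Wnt genes and receptors had 23.3% (40 of 172), with 9 at the receptor gene fz2 and 8 at fz, all 8 of which had an EcR-RNAi wing peak. The list of the dorsal-ventral boundary and Notch pathway had 17.8% (27 of 152), the Dpp pathway 17.5% (24 of 137) and the Hedgehog list 17.3% (13 of 75). The Dpp receptor gene tkv was assigned no wing peak, although wing-only peaks lay inside it, such as that at 2L 5239832 to 5240083. Peaks there were assigned to TpnC25D or Cyp4ac1, whose ends were nearer, so the Dpp share leaves them out. The Wnt ligand gene wg had 6 of 17, Bx, whose LMO product restrains Apterous, 6 of 17 with a fold enrichment of up to 5.70, and dpp, the BMP ligand, 6 of 27.

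Of the 28 ecdysone response genes, 19 had at least 1 wing-only peak. The early gene br had 6 of its 64 wing peaks, none with an EcR-RNAi wing peak, and Eip74EF and Eip75B had 2 each of 34 and 30. EcR itself had 3 of 14. The strongest of the list lay 14.8 kb from Eip93F, a temporal regulator, with a fold enrichment of 4.82.

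Markers of other cell types gave small numbers. Tracheal genes had 24.2% (29 of 120), led by knrl with 8, and myoblast genes 25.0% (18 of 72), with 5 at the fusion gene sns. Cuticle and apical matrix genes had 24.4% (33 of 135), of which 10 were at dpy. The 11 assigned to HP6, which also lay inside dpy, are not in this count. Neural genes had 38.5% (15 of 39, 1 with an EcR-RNAi wing peak) and haemocyte genes 35.0% (7 of 20, none with one), both over few peaks. Salivary gland genes had 15.2% (5 of 33), fat body genes 16.7% (4 of 24) and peripodial epithelium genes 15.2% (12 of 79). In a disc, fewer cells of a type and less open chromatin per cell cannot be told apart.

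The 10 strongest wing-only peaks with an EcR-RNAi wing peak mostly lay between genes. The strongest of all lay inside sowah at 3L 12558743 to 12559736, 21.5 kb from the Iroquois gene ara, with a fold enrichment of 8.14, above 96.0% of all WT wing peaks. The peak it overlapped in EcR-RNAi wing had a fold enrichment of 6.53, above 94.2% of that list. Next came a peak 1.54 kb from CG5321 (X 14677494 to 14678244) with 7.12, and one inside kn (2R 14782550 to 14784041) with 6.96, 10.7 kb from the nearest gene end. The kn peak is also the widest wing-only peak, at 1492 bp.

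A peak near lectin-21Cb (2L 612258 to 612829) had a fold enrichment of 6.84 and lay 72.1 kb from ush, which encodes a cofactor of the notum gene pnr. One near Gp150, a transmembrane glycoprotein gene (2R 22316305 to 22316617), had 6.56 and lay 30.0 kb from dve, a homeobox gene of the wing pouch. Near CG8765 (3L 19678028 to 19678763) the fold enrichment was 6.68, near CG14820 (3L 6936409 to 6937397) 6.55, near snky (3L 13172388 to 13173059) 6.45, near nht (2L 15312256 to 15312815) 6.01 and near Prat2 (3L 6917121 to 6917526) 5.99. The listed gene closest to the CG8765 peak was verm of the cuticle list, at 11.6 kb. The peaks near CG14820, snky, nht and Prat2 lay 122.3 to 269.2 kb from any listed gene, and that near CG5321 916.5 kb. The overlapping EcR-RNAi peaks ranked lower in their own list at Prat2 and CG14820, where they exceeded 23.2% and 48.1% of its peaks, than at the other 8, where they exceeded 74.8% to 94.2%.

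Wing-only peaks without an EcR-RNAi wing peak reached a fold enrichment of 4.86. That one lay 28.5 kb from salr at 2L 11401956 to 11402390. The others of at least 4 were inside mamo, a zinc finger gene (X 13976716 to 13976874, 4.45), inside M7BP and 0.359 kb from CG43341 (2R 7634137 to 7634337, 4.21), and inside hth (3R 10585672 to 10585860, 4.03). Below these came peaks at Cpr66Cb, a cuticle protein gene (3.83), kcc, a potassium-chloride cotransporter gene (3.76), UQCR-11 (3.66), Him, an inhibitor of muscle differentiation in myoblasts (3.64), Ir94h (3.63) and CG9932 (3.62). Apart from the peaks at salr and kcc, these were 130 to 201 bp wide, against 313 to 1492 bp for the 10 strongest with an EcR-RNAi wing peak.

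The authors' deposited tables compare groups over 13008 shared regions, and they hold few wing-only peaks. A region of these tables overlapped 9% of wing-only peaks (628) and 55.2% of the other wing peaks. Of these 628, 403 (64.2%) had an EcR-RNAi wing peak, against 22% of all wing-only peaks. Their median fold enrichment was 2.69, against 2.39 for wing-only peaks outside the regions. In the tables' own marks a region counts as overlapping wing only where its best wing peak has a −log10 q of at least 14.6, a level that 143 wing-only peaks reached. The 608 regions with a wing-only peak had a median mean normalized count over all libraries of 102.1, against 120.2 for all regions. Of these 608, 373 had no leg peak and 421 no gland peak anywhere in the region; 327 had neither, and had a median count of 66.7.

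The marks in these tables did not match the gland list. The authors marked 6586 regions as overlapping gland peaks, and 678 of these (10.3%) held no peak of the deposited gland list, whereas each of the 7011 marked for leg held a leg peak. Among regions with a wing-only peak, 91 were marked for gland without a gland peak in the list, and they touched 91 wing-only peaks. Absence from gland is therefore absence from the deposited list, and counts are also given for the 294 regions that the authors mark for neither leg nor gland. Those marks are not a stricter form of the lists, since 41 of the 294 held a listed leg peak and 15 a listed gland peak.

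Leg and gland peaks chose the members, so the folds over leg and gland describe that choice and test nothing. The comparisons of wing with leg, gland and EcR-RNAi wing also share the same WT wing libraries. In the authors' deposited table of wing against leg the 327 regions had a median log2 fold change of 0.80 (quartiles 0.39 and 1.15), against -0.03 for all regions, and 319 of 327 were above 0. Calls needed a log2 fold change of 1 or more in either direction together with an adjusted p below 0.05. Of the 569 regions with a wing-only peak and an adjusted p, the authors' deposited table, for which the labels name DESeq2, had 126 higher in wing (22.1%) and 0 higher in leg. Over all tested regions these were 2.04% and 2.21%. At an unadjusted p under 0.05 there were 234 and 5 of the 608 regions with a wing-only peak, against 1047 and 1119 of all 13008. Regions with wing-only peaks thus made up 126 of the 251 called higher in wing, or 50.2%, and 569 of the 12327 tested. The choice of members favours this share, as it does the folds over leg.

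Over gland the same regions were mixed. In the authors' deposited table of wing against gland 116 of 608 were called higher in wing (19.1%; all regions 21.1%) and 31 higher in gland (5.10%; all regions 12.7%). Centred on the median of all regions, 0.18, the authors' deposited values gave 74 and 75. The centred counts have no share over all regions here. All 31 were marked for gland by the authors, and 23 held a listed gland peak elsewhere in the region. Among the 294 regions marked for neither leg nor gland, the authors' deposited table called 86 higher in wing than gland (29.3%; all regions 21.1%). It called 0 higher in gland (all regions 12.7%). In the authors' deposited table of wing against leg, 124 of the 292 tested were higher in wing (42.5%; all regions 2.04%).

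The split by EcR-RNAi peak went with these folds too. Of the 389 tested regions whose wing-only peaks include one with an EcR-RNAi wing peak, the authors' deposited table called 125 higher in wing than leg (32.1%). Of the 180 tested regions without one it called 1 (0.556%). Over all tested regions the share was 2.04%. Median log2 fold changes over gland were 0.65 in the first set and -0.63 in the second in the authors' deposited table. Of the 217 regions of the second set the authors marked 190 for gland, against 66 of 391 in the first and 6586 of all 13008. The folds over gland cannot be separated from these marks. Peak strength also differed with the split, and the part of either was not tested.

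**Figure D5:**
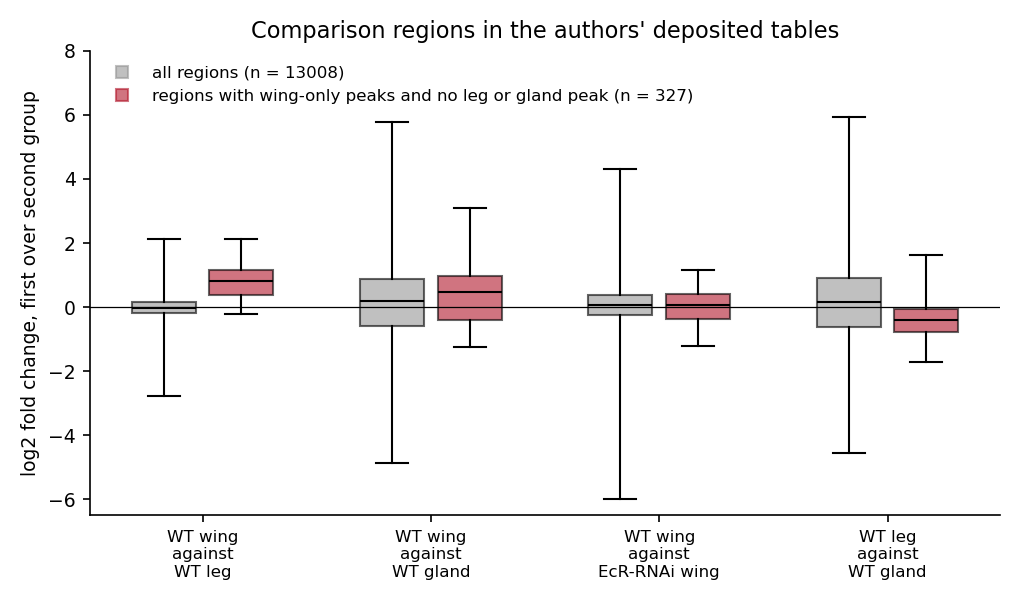
Log2 fold changes (y axis, first over second group) in the authors' deposited tables for all 13008 regions and for the 327 regions with wing-only peaks and no leg or gland peak. Boxes span the quartiles with the median, and whiskers the full range. The 327 regions have medians of 0.80 over leg and 0.49 over gland, which the choice of members favours, and 0.06 for WT over EcR-RNAi wing.

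Between WT and EcR-RNAi wing few regions with a wing-only peak were called in either direction. The WT wing list was used in choosing the members, so this contrast is a description as well. The regions hold only 9% of wing-only peaks, so they do not stand for the rest. Their median log2 fold change of WT over EcR-RNAi wing was 0.05 in the authors' deposited table (quartiles -0.29 and 0.32), against 0.08 for all regions. It was -0.09 in the 391 regions whose wing-only peaks include one with an EcR-RNAi wing peak and 0.23 in the other 217. The EcR-RNAi list made that split, so these medians describe it and test nothing. Of the 580 regions with a wing-only peak and an adjusted p, 2 were called higher in WT wing (0.345%; all regions 1.24%) and 2 higher in EcR-RNAi wing (0.345%; all regions 0.789%). At an adjusted p under 0.05 with no fold threshold the numbers were 33 and 40 in the authors' deposited table. These 2 counts have no share over all regions here. At an unadjusted p under 0.05 there were 80 and 87 of 608, against 2633 and 1459 of all 13008.

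All 4 called regions held wing-only peaks and no leg or gland peak. In the authors' deposited table those higher in WT wing were small, at nvy, a transcriptional corepressor gene (2R 24281626 to 24281862, log2 fold change 1.10, SE 0.36, mean normalized count 36.6), and at CAH1, a carbonic anhydrase gene (2L 13809410 to 13809589, 1.16, SE 0.38, count 29.0). Neither had an EcR-RNAi wing peak. Higher in EcR-RNAi wing were a region 0.175 kb from CG15212 (3L 5131115 to 5131624, log2 fold change of WT over EcR-RNAi -1.21, SE 0.22) and one 4.69 kb from CG34291 (3R 26429903 to 26431042, -1.11, SE 0.18) in the authors' deposited table, both with an EcR-RNAi wing peak.

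The largest fold over leg among wing-only regions of at least the median count lay near CG14820 (3L 6936408 to 6937397). In the authors' deposited tables its log2 fold change was 2.12 over leg (SE 0.21), 1.63 over gland (SE 0.19) and 0.63 over EcR-RNAi wing (SE 0.19). The kn region had 1.99 over leg (SE 0.19), 1.41 over gland (SE 0.17) and 0.58 over EcR-RNAi wing (SE 0.17) in the authors' deposited tables. In most of the next regions WT and EcR-RNAi wing were close.

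Near ppk, a sodium channel gene (2L 14381752 to 14382439), the authors' deposited tables gave 1.9 over leg (SE 0.19) and 0.07 over EcR-RNAi wing (SE 0.16). Near CG5321 they were 1.85 (SE 0.21) and 0.18 (SE 0.18), and near Gp150 1.83 (SE 0.19) and -0.01 (SE 0.16). The region near Ttc30 (2L 13095665 to 13096391) had 1.84 over leg (SE 0.22) and 0.00 over EcR-RNAi wing (SE 0.18), and that inside sowah 1.65 (SE 0.19) and -0.02 (SE 0.17) in the authors' deposited tables. Near Osi21 the values were 1.81 (SE 0.23) and 0.55 (SE 0.21), inside boi, a Hedgehog co-receptor gene, 1.78 (SE 0.22) and -0.06 (SE 0.19), and near ND-20L 1.66 (SE 0.20) and 0.15 (SE 0.18) in the authors' deposited tables. The ND-20L region was the only one of the 10 that also held another wing peak and a gland peak.

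At patterning genes the wing-only regions differed in how far they stood above gland. The vg locus had 6 such regions, of which 5 were called higher in wing than leg in the authors' deposited table (all regions 2.04%), with log2 fold changes from 1.28 to 1.46. The sixth, at 2R 12903856 to 12904899, had 0.24 over leg (SE 0.14) and 1.76 over gland (SE 0.15) in the authors' deposited tables. It held a leg peak and another wing peak, and so did the called region at 2R 12896337 to 12897316 (1.28 over leg, SE 0.20). Their log2 fold changes of WT over EcR-RNAi wing at vg ran from 0.01 to 0.45 and none was called.

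At salr 3 of 5 regions were called higher in wing than leg in the authors' deposited table. The region at 2L 11401955 to 11402390, which holds the strongest wing-only peak without an EcR-RNAi peak, had a log2 fold change of 1.72 over leg and 0.98 over EcR-RNAi wing, below the fold threshold. At hth the 6 regions were all called higher in wing than gland (1.48 to 2.67), and 1 of them higher in wing than leg (1.69, at 3R 10578734 to 10579106), in the authors' deposited tables. The hth regions at 3R 10517016 to 10517765 (2.67 over gland) and 3R 10549847 to 10551462 (2.34) also held leg peaks and other wing peaks. Among mirr regions 1 of 4 was called higher in wing than leg (1.20). Over all tested regions 2.04% were called higher in wing than leg and 21.1% higher in wing than gland.

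Among called wing-only regions of at least the median count, the largest fold over gland lay near CadN, the N-cadherin gene (2L 17781532 to 17782448). This region had 3.82 over gland (SE 0.25) but 0.17 over leg (SE 0.18) in the authors' deposited tables, and it held another wing peak and a leg peak beside the wing-only one. At this count the other regions of the 10 with the largest folds over gland did so too, among them 2 at hth, 1 inside kirre near CG4116 (2.35, SE 0.20) and 1 inside Snoo (2.23, SE 0.16). Their values over gland therefore cover more than the wing-only peak, and over leg they ran from -0.53 near CG4116 to 0.83 at hth in the authors' deposited table. Without the limit on count, regions with neither a leg nor a gland peak reached 3.09 over gland, and the hth region at 3R 10578734 to 10579106 had 2.42 over gland and 1.69 over leg in the authors' deposited tables. DNA copy number, which differs in the polytene gland, was not measured in these libraries.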

How the data were processed

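The authors deposited 1 peak list per group, called on merged libraries, and 4 comparison tables. Per the submitters' processing notes the tools were MACS2 2.1.2, DESeq2 in R 3.5.2, bedtools 2.26, Bowtie2 2.3.4.1, Picard 2.2.4 and SAMtools 1.9 on build dm6. Settings were not given in the sources used here. The authors' peak values are a fold enrichment (a ratio), a score and −log10 q. The deposited tables give a mean normalized count (a signal over all libraries), a log2 fold change with SE, a test score, and p-values before and after adjustment.

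Here peaks were overlapped (at least 1 bp) with pandas 2.3.3 and numpy 2.4.6, tested on simulated intervals, and assigned by summit to the protein-coding gene (13951, RefSeq Release 6) whose nearer end was closest; intervals are Wilson 95%. Regions keep the tables' coordinates. Regions with no adjusted p were not counted as tested. Named items were the 10 strongest peaks with and without an EcR-RNAi peak, the 10 genes with most peaks and ties, the 10 called regions of at least the median count with the largest folds, edge peaks and genes of 18 lists (221 symbols, all matched). Members and lists were chosen with earlier results of these data known. Without counts per library no comparison was refitted and the depth is unknown. The labels do not say whether a group's libraries are separate crosses, so p-values may measure technical spread. Motifs and sequences were not analysed here.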

Additional observations from a re-analysis of the deposited data

How the results depend on the processing

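The number of wing-only peaks was 10511 when a shared peak needed a reciprocal overlap of 50%, 721 among wing peaks with a fold enrichment of at least 3 and 315 among those with −log10 q of at least 10; other definitions gave 5472 to 8290. The share with an EcR-RNAi wing peak was 27.9%, 70.9% and 94.3% under these 3 settings, 26.0% without the gland list (an alternative chosen after seeing the data), 20.7% by summit and 17.4% by reciprocal overlap with the EcR-RNAi peak. The share near a gene end was 15.7% with leg and gland peaks widened by 250 bp, 18.8% where sharing was judged by summit, 20.04%, 11.1% and 7.62% under the first 3 settings, 20.8% without the gland list and 33.1% at 1000 bp. The share overlapping a comparison region was 5.94% (widened), 10.8% (by summit), 19.9%, 32.2% and 59.0% (the first 3), 13.5% without the gland list and 8.14% with the summit inside the region. The count called higher in wing than leg stayed between 120 and 178. That over gland was 250 without a fold threshold and 74 after subtracting the table's median of 0.18 (the medians over leg and EcR-RNAi wing were -0.03 and 0.08). Higher in WT than EcR-RNAi wing were 33 regions without a fold threshold, 0 at an adjusted p under 0.01, 1 where the region had to hold the summit and 0 among regions marked for neither leg nor gland (added after seeing the data); higher in EcR-RNAi wing were 40 without a fold threshold. The cause was not tested, except that stricter settings keep fewer peaks by construction. Gene starts could not be used without strand. No paired analysis was possible because the files hold no value per library, and for the same reason no library was left out. Depth limits weak peaks most, and its values are unknown.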
